A study of Homo sapiens with 12 samples.

Results

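The anaphase-promoting complex (APC/C) is a ubiquitin ligase of many subunits that marks mitotic proteins for destruction by the proteasome. The 10 genes described here encode 5 of its subunits (CDC16, CDC23, CDC27, ANAPC1 and ANAPC4), both activators (CDC20 and FZR1), the inhibitor FBXO5, and the ubiquitin-conjugating enzymes, or E2s, UBE2C and UBE2S. They were listed by symbol for their role in the complex, with earlier results of these data known, and all 10 were found among the 19460 genes of the RNA table. T-47D, labelled WT in the RNA samples, is a long-established human line of luminal breast cancer cells that express the oestrogen receptor. Cells received 1 µM palbociclib, which blocks the G1 kinases CDK4 and CDK6, or the solvent DMSO, in each case for 24 h. Poly(A) RNA sequencing and ATAC-seq, which reads how open chromatin is to the transposase Tn5, each had 3 libraries per treatment. The ATAC libraries came from separate dishes, and the RNA labels give replicate numbers only, so their p-values measure a spread that may be technical. The ATAC libraries were made from 50000 cells each, and their DMSO controls received 0.1% of the solvent. All results come from this 1 line, 1 dose and 1 time.

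As background, the complex acts with one activator at a time. CDC20 activates it at the metaphase to anaphase transition, once the spindle checkpoint is satisfied, and FZR1 (also called CDH1) takes over from late mitosis through G1. FBXO5 (EMI1) blocks it during S and G2 phase. UBE2C places the first ubiquitins on a substrate and UBE2S lengthens the chain. Transcription of several of these genes varies over the cell cycle, under the E2F, MuvB, B-MYB and FOXM1 factors that act downstream of CDK4 and CDK6.

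The RNA values are FPKM, a level scaled for transcript length and library size, which carries no read totals. The reads counted over skipped exon events ran from 52242249 to 75371638 per RNA library, with some reads counted in several events, and the reads in ATAC peaks ran from 12830062 to 18250496. The 7 luminal marker genes fixed for the line had DMSO means of 43.2 to 2113 FPKM. Of these, 6 were called higher with palbociclib, against 20.9% of all genes tested. Log2 changes of all 7 ran from -0.14 to 0.55. The part of this in the results was not tested. Of 8 markers of other cell types, COL1A1 and ACTA2 were also present, at 23.7 and 9.04 FPKM in DMSO and 25.1 and 8.90 FPKM with palbociclib, COL1A2 was at 0.453 and 0.315 FPKM, and the other 5 were not analysed here. Values are means ± SD over 3 libraries, and changes are palbociclib minus DMSO on the log2(FPKM + 1) scale with the standard error (SE) of the limma fit. The pseudocount of 1 FPKM understates the change of genes near that level. A gene was called at a Benjamini-Hochberg adjusted p under 0.05 over 15869 genes with a mean of at least 0.5 FPKM, which all 10 members passed.

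The promoter sequences show where these genes start and which cell cycle motifs lie in front of them. RefSeq on GRCh38.p14 gave promoter entries for 9 of the 10 genes, and UBE2C was not matched. The 250 bases before the start were searched on both strands for 3 motifs. These were the CHR, a binding element of the MuvB complexes (TTTGAA or TTCGAA), the CCAAT box bound by NF-Y (CCAAT), and E2F-like octamers (TTTCCCGC, TTTGGCGC, TTTCGCGC, TTTGCCGC, TTCCCGCC or TTGGCGGG). Of 35116 promoters, 14.3% held a CHR, 32% a CCAAT box and 5.68% an E2F-like octamer. The 5 sequences below are those of the activators, the inhibitor, UBE2S and CDC23, the one subunit among the 10 genes whose start peak was called lower. Each runs 5′ to 3′ in the direction of its gene and ends at the base before the start, with motif matches in capitals. They lie at chr1:43358731-43358980 (plus strand), chr19:3506061-3506310 (plus), chr6:152983580-152983829 (minus), chr19:55407789-55408038 (minus) and chr5:138213324-138213573 (minus).
CDC20: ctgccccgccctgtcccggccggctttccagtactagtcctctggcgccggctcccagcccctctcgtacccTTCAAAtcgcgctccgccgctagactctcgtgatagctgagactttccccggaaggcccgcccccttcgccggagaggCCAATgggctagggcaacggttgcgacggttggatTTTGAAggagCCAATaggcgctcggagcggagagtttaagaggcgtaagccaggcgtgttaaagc
FZR1: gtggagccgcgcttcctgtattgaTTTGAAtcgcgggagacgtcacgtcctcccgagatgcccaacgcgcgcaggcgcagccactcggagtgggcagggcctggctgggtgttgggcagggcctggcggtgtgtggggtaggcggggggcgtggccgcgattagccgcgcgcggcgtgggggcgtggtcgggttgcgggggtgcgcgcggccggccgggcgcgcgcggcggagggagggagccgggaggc
FBXO5: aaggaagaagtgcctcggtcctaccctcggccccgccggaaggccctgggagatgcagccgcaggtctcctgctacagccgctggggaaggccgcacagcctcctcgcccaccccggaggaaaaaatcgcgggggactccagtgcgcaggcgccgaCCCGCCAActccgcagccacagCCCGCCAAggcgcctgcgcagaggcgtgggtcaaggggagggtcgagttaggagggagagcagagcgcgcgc
UBE2S: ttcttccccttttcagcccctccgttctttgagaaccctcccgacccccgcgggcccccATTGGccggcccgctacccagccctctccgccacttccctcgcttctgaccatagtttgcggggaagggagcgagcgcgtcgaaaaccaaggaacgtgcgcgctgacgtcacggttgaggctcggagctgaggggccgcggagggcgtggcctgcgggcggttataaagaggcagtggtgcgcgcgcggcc
CDC23: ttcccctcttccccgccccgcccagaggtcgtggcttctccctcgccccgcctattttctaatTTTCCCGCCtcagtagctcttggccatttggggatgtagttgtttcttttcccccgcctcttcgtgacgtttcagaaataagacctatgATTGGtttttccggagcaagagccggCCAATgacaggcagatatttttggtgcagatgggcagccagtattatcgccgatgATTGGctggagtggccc
CDC20 held CHR matches beginning 178 and 65 bases before the start and CCAAT boxes at 100 and 55 bases. FZR1 held 1 CHR match, at 226 bases, and no match before its other listed start, at 3522956. FBXO5 held E2F-like octamers at 94 and 72 bases. Before its other listed start, at 152983041, it held a CHR match at 40 bases and CCAAT boxes at 141, 138, 98 and 68 bases. Those at 141 and 138 bases overlap each other, on opposite strands. UBE2S held a CCAAT box at 191 bases. CDC23 held CCAAT boxes at 98, 72 and 17 bases and E2F-like octamers at 187 and 186 bases that overlap each other. Of the promoters not shown, CDC16 held a CCAAT box at 183 and an E2F-like octamer at 74 bases, CDC27 a CCAAT box at 226 bases, and ANAPC1 and ANAPC4 no match in this window. E2F-like octamers thus stood before FBXO5, CDC16 and CDC23. A match is a run of letters, not a measured binding site.

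With palbociclib, RNA for the activator of mitosis, the inhibitor and both E2s fell to between 8.30% and 19.7% of the DMSO level, while the activator of G1 and the 5 subunits stayed between 76.3% and 111% of it. Of the 10 genes, 8 were called lower and 1 higher in limma, where 22.9% of all genes tested were lower and 20.9% higher. Quantile normalization turned the balance over all genes, from 3628 lower and 3312 higher to 2856 lower and 4588 higher, and left 6 of the 10 lower. The 2 treatments did not overlap in 9 of the 10, against 54.7% of all genes tested. A fall of at least 1 on the log2 scale was reached by 4 of the 10, CDC20, FBXO5, UBE2C and UBE2S, against 3.04% of all genes. In cells pooled in a library, fewer cells in a cell cycle phase and less RNA per cell cannot be told apart.

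**Figure D1:**
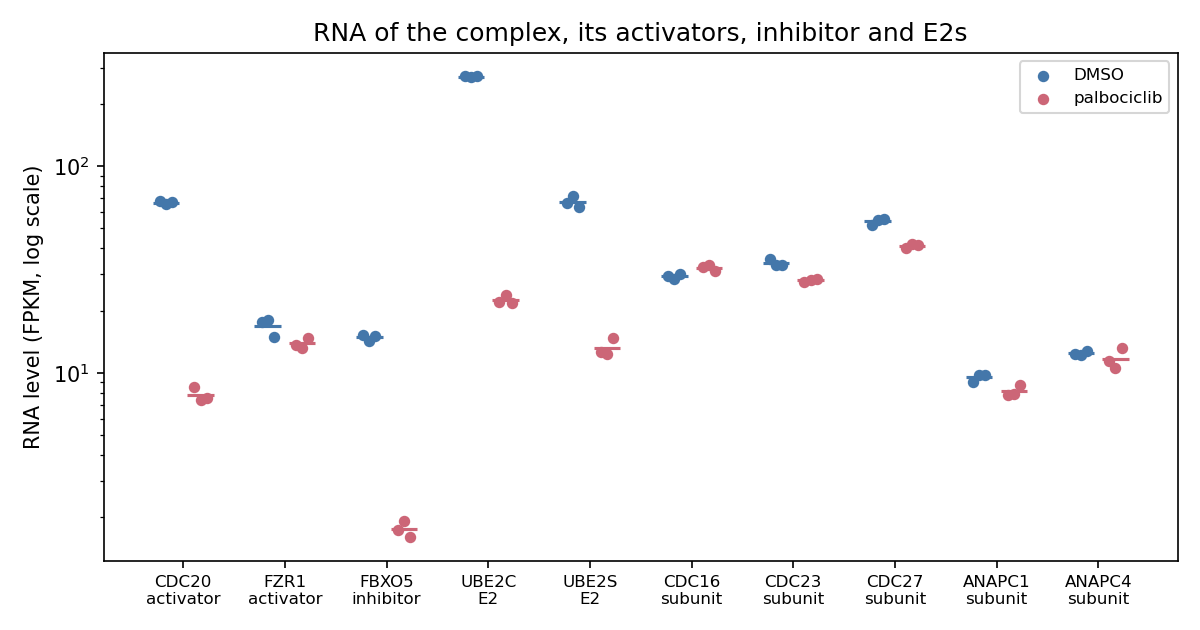
RNA level of the 10 genes in each library, in FPKM on a log scale, with DMSO in blue and palbociclib in red; points are libraries and bars are means of 3. CDC20, FBXO5, UBE2C and UBE2S separate widely by treatment, from 66.6 to 7.83 FPKM for CDC20, and the other 6 genes differ little.

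The activators parted. CDC20 (ENSG00000117399, chromosome 1, 43358981 to 43363203) had 67.5, 65.5 and 66.8 FPKM in the DMSO libraries and 8.53, 7.39 and 7.57 FPKM in the palbociclib libraries. Every treated library lay far below every control, with means of 66.6 ± 1.02 and 7.83 ± 0.611 FPKM. The log2 change was -2.94 (SE 0.053, limma adjusted p 1.57e-09). FZR1 (ENSG00000105325, chromosome 19, 3506311 to 3538334) had 17.6, 17.9 and 14.9 FPKM in DMSO and 13.7, 13.2 and 14.8 FPKM with palbociclib. Replicate 3 of each treatment nearly met, and the means were 16.8 ± 1.67 and 13.9 ± 0.823 FPKM. Its log2 change of -0.25 (SE 0.075, limma adjusted p 0.0243) was called, but not without DMSO replicate 1 (adjusted p 0.0777) or 2 (0.0838), nor without palbociclib replicate 1 (0.0688) or 2 (0.0816). Quantile normalization, which gives all libraries 1 distribution, also ended the call, with a log2 change of -0.16 (adjusted p 0.123).

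The inhibitor FBXO5 (ENSG00000112029, chromosome 6, 152970535 to 152983579) also fell. It had 15.3, 14.2 and 15.1 FPKM in DMSO and 1.74, 1.92 and 1.59 FPKM with palbociclib, or 14.9 ± 0.556 against 1.75 ± 0.162. The log2 change was -2.53 (SE 0.065, limma adjusted p 1.29e-08), and -3.02 with a pseudocount of 0.1. The treated level thus stood at 11.8% of the control level, the same share as for CDC20. Beside the members, its paralogue FBXO43 (EMI2), which inhibits the complex in oocytes, had DMSO values of 0.663, 0.635 and 0.758 FPKM and 0.109, 0.125 and 0.102 FPKM with palbociclib, under the level at which genes were tested.

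Both E2s fell. UBE2C (ENSG00000175063, chromosome 20, 45812644 to 45816952) had the highest FPKM of the 10 in DMSO, at 273.4, 269.1 and 273.0, and had 22.0, 23.9 and 21.8 FPKM with palbociclib. The fall from 271.9 ± 2.36 to 22.6 ± 1.17 FPKM is 12.1-fold, with a log2 change of -3.54 (SE 0.040, limma adjusted p 3.90e-10). UBE2S (ENSG00000108106, chromosome 19, 55399745 to 55407788) had 66.2, 71.8 and 63.5 FPKM in DMSO and 12.7, 12.3 and 14.7 FPKM with palbociclib. Its fall from 67.1 ± 4.21 to 13.2 ± 1.28 FPKM is 5.07-fold, with a log2 change of -2.26 (SE 0.070, limma adjusted p 4.35e-08). UBE2C has pseudogene copies with rows of their own, UBE2CP2 and UBE2CP5, named because of that likeness. Their levels were 0.626 ± 0.129 and 1.76 ± 1.60 FPKM in DMSO and 1.17 ± 0.626 and 2.82 ± 0.496 FPKM with palbociclib, well under that of UBE2C, and neither was called (limma adjusted p 0.133 and 0.246).

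The subunits moved by far less, and not all in 1 direction. CDC27 (ENSG00000004897), a scaffold subunit that receives the activators, had 51.9, 55.2 and 55.2 FPKM in DMSO and 40.3, 42.1 and 41.4 FPKM with palbociclib. Its log2 change was -0.38 (SE 0.037, limma adjusted p 7.75e-05). CDC23 (ENSG00000094880), built of the same kind of repeats, had 35.5, 33.4 and 33.4 FPKM and 27.4, 28.2 and 28.5 FPKM (log2 change -0.27, SE 0.039, limma adjusted p 0.000676). In both genes all treated libraries lay below all controls, with means at 76.3% and 82.2% of the control mean. CDC16 (ENSG00000130177), also built of these repeats, was the one member called higher. It had 29.4, 28.5 and 29.9 FPKM in DMSO and 32.5, 33.4 and 31.1 FPKM with palbociclib, a log2 change of 0.14 (SE 0.040, limma adjusted p 0.0223). That call was lost without DMSO replicate 1 (adjusted p 0.0541) or 2 (0.0772) and without palbociclib replicate 1 (0.0649) or 2 (0.0826).

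ANAPC1 (ENSG00000153107), the largest scaffold subunit, had 9.02, 9.79 and 9.77 FPKM in DMSO and 7.83, 7.86 and 8.77 FPKM with palbociclib. The groups stood apart by little, and the log2 change was -0.20 (SE 0.061, limma adjusted p 0.0262). It was not called without DMSO replicate 2 (adjusted p 0.0825) or 3 (0.0736), without palbociclib replicate 1 (0.0839) or 2 (0.0857), or after quantile normalization (-0.11, adjusted p 0.184). A partial copy, ANAPC1P2, was at 3.03 ± 0.332 and 3.17 ± 0.090 FPKM, and how reads shared with ANAPC1 were divided is not given in the sources used here. ANAPC4 (ENSG00000053900), a platform subunit, had 12.4, 12.2 and 12.8 FPKM in DMSO and 11.4, 10.6 and 13.1 FPKM with palbociclib. Palbociclib replicate 3 was above all 3 controls, and the log2 change of -0.09 (SE 0.072) was not called (limma adjusted p 0.364). Without that library it was -0.17 (adjusted p 0.0468).

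The order of the levels turned over. FPKM is scaled for length, so levels of different genes can be set side by side, though only roughly. How length was set for each gene was not examined. In DMSO the order was UBE2C, UBE2S, CDC20, CDC27, CDC23, CDC16, FZR1, FBXO5, ANAPC4 and ANAPC1, from 271.9 to 9.53 FPKM. UBE2S and CDC20, and FZR1 and FBXO5, overlapped between libraries, and all other neighbours were separate. With palbociclib CDC27 led at 41.3 FPKM, followed by CDC16 at 32.3, CDC23 at 28.0 and UBE2C at 22.6 FPKM. FZR1, UBE2S and ANAPC4 followed at 13.9, 13.2 and 11.7 FPKM, each overlapping the next, then ANAPC1 and CDC20 at 8.15 and 7.83 FPKM, which overlapped, and FBXO5 last at 1.75 FPKM. CDC20 and UBE2S thus dropped below CDC27, CDC23 and CDC16.

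Ratios within a library show the same values without scaling between libraries. The CDC20 to FZR1 ratio of FPKM was 3.84, 3.66 and 4.49 in DMSO and 0.624, 0.560 and 0.511 with palbociclib. The FPKM of the mitotic activator was thus above that of the G1 activator in all 3 controls and below it in all 3 treated libraries. The log2 difference was -2.82 (exact permutation test, two-sided, p 0.1). FBXO5 to FZR1 went from 0.868, 0.795 and 1.02 to 0.127, 0.145 and 0.108, a log2 difference of -2.82 (exact permutation p 0.1). UBE2C to UBE2S, a ratio added after the values were seen, went from 4.13, 3.75 and 4.30 to 1.74, 1.94 and 1.48 (log2 difference -1.25) and was not tested. The smallest p that 3 against 3 libraries can give is 0.1, and adjusted over the 2 tested ratios each stayed at 0.1.

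**Figure D2:**
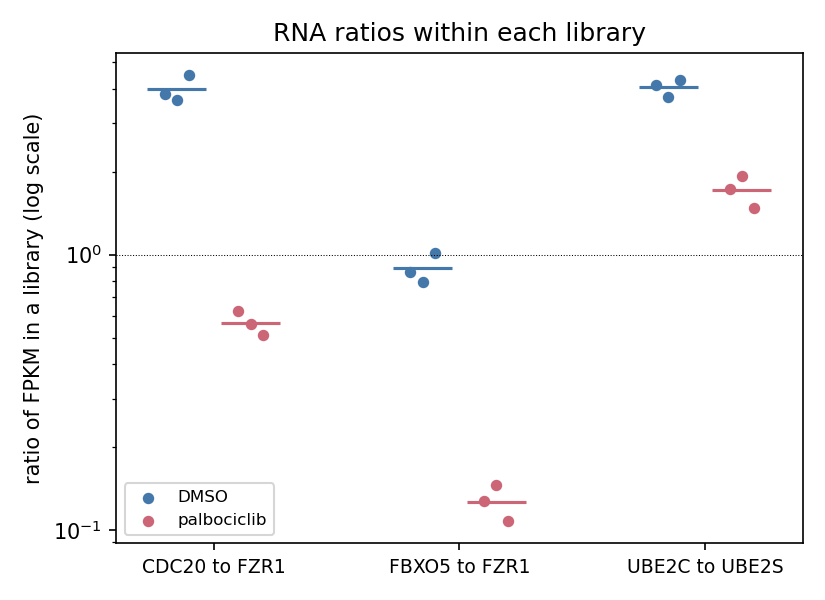
Ratio of FPKM between 2 genes in each library, on a log scale. Points are libraries (DMSO blue, palbociclib red), bars are means of 3 and the dotted line marks equal FPKM. The CDC20 to FZR1 ratio lies above 1 in the controls, at 3.66 to 4.49, and below 1 in the treated libraries, at 0.511 to 0.624.

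The authors' deposited table, from the same libraries, gives log2 changes of -3.09 for CDC20, -3.09 for FBXO5, -3.59 for UBE2C and -2.34 for UBE2S. In the authors' deposited table FZR1 is at -0.27 (adjusted p 0.00285), CDC27 at -0.39, CDC23 at -0.28, ANAPC1 at -0.23, ANAPC4 at -0.09 (adjusted p 0.439) and CDC16 at 0.14 (adjusted p 0.0172). Its mean normalized counts for the members run from 991 for FBXO5 to 9507 for CDC27, so none rests on few reads. In the authors' deposited table the adjusted p is under 0.05 for the 9 genes called in limma, with the same directions, and the authors' own label marks 4 of them, CDC20, FBXO5, UBE2C and UBE2S, as lower.

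The remaining subunits of the complex also changed little. Of 9 others, 5 were lower and 2 higher, with a median log2 change of -0.11 against 0.0023 over all genes tested, of which 22.9% were lower and 20.9% higher. The largest changes were in ANAPC15, needed to release checkpoint proteins from the complex, and ANAPC11, its catalytic RING subunit. ANAPC15 had 35.5, 39.1 and 38.2 FPKM in DMSO and 27.7, 25.8 and 27.0 with palbociclib (log2 change -0.47, limma adjusted p 8.78e-05). ANAPC11 had 113.8, 111.9 and 120.4 FPKM in DMSO and 85.7, 91.8 and 87.3 with palbociclib (log2 change -0.38, limma adjusted p 0.000115). ANAPC2, the cullin subunit, and ANAPC10, which helps bind substrates, were not called, with log2 changes of -0.0038 and 0.06 (limma adjusted p 0.950 and 0.480). ANAPC7, ANAPC5 and CDC26 were lower by 0.23, 0.11 and 0.12 on the log2 scale, and ANAPC13 and ANAPC16 higher by 0.19 and 0.14. The call of ANAPC16 was close to the threshold (limma adjusted p 0.0480), and 1 subunit rather than 2 was higher when any library other than palbociclib replicate 3 was left out. Over all 14 subunits the summed level was 647.6, 649.9 and 658.4 FPKM in DMSO and 583.2, 590.4 and 583.7 FPKM with palbociclib, lower in every treated library, and 8 of the 14 were lower and 3 higher.

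**Figure D3:**
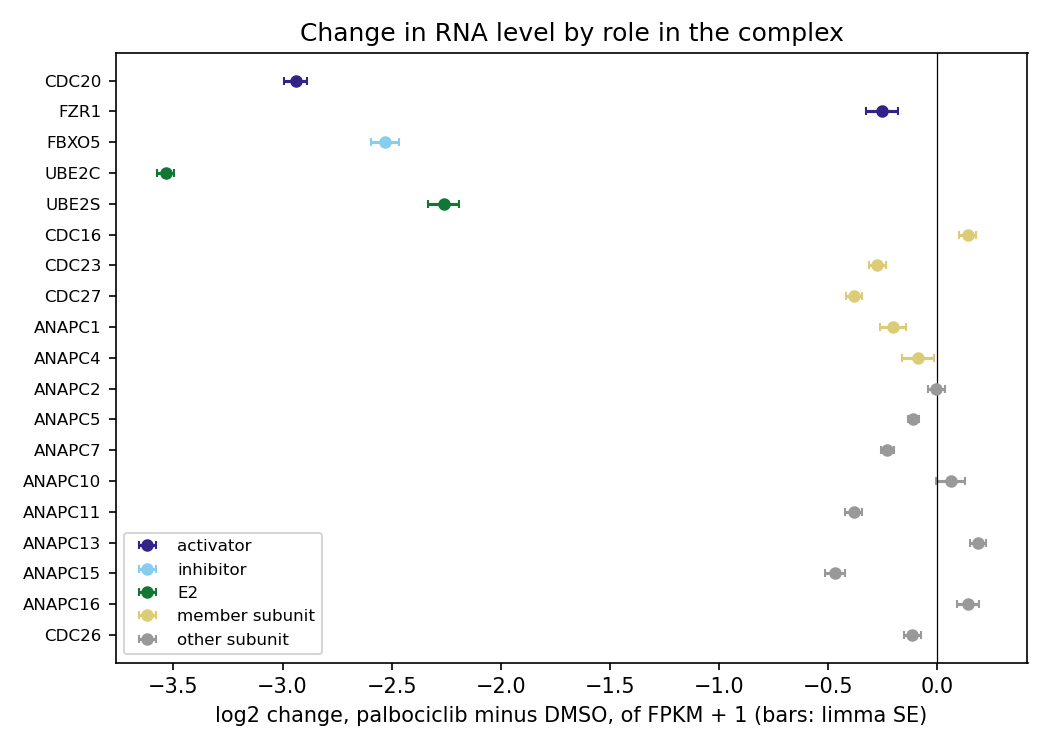
Change in RNA level of the 10 genes and the 9 other subunits, palbociclib minus DMSO on the log2(FPKM + 1) scale; points are limma estimates and bars their SE. CDC20, FBXO5, UBE2C and UBE2S lie between -3.54 and -2.26, and FZR1 and all subunits between -0.47 and 0.19.

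The complex's partners were read from lists fixed with earlier results of these data known. Over all genes tested, 22.9% were called lower, and 3.04% were called with a log2 fall of at least 1. All 27 genes on a list of APC/C substrates fell, with a median log2 change of -2.96 and a range of -5.38 to -1.05. The largest falls were in RRM2, a ribonucleotide reductase subunit, from 106.0 ± 2.45 to 1.57 ± 0.139 FPKM, and AURKB, the kinase of the chromosomal passenger complex, from 43.1 ± 1.94 to 2.03 ± 0.156 FPKM (limma adjusted p 3.29e-10 and 6.00e-10). All 8 genes on a list for the spindle checkpoint also fell, with a median of -2.71 and a range of -3.07 to -0.16. The checkpoint restrains CDC20, though not every listed gene acts to do so, such as TRIP13 below. The smallest falls, of MAD2L1BP (-0.16) and MAD1L1 (-0.22), had limma adjusted p of 0.0200 and 0.0327, and these genes were picked out after their values were seen. After quantile normalization 6 of the 8 were lower, as without palbociclib replicate 3, and 7 were lower without any one of DMSO replicates 1, 2 and 3 and palbociclib replicate 1. TRIP13, which takes checkpoint complexes apart, went from 47.8 ± 3.10 to 4.81 ± 0.358 FPKM, and the kinase gene BUB1 from 23.8 ± 0.192 to 2.02 ± 0.107 FPKM (limma adjusted p 3.31e-09 and 1.06e-09).

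The counts for other regulators and other ligases were near or under the shares over all genes tested, 22.9% lower and 20.9% higher, and are no result about these lists. Of 11 modulators, 9 were tested and 2 were lower, with a median of -0.11. FBXO43 was too low to test and USP44 was not analysed here. The 2 were USP37, a deubiquitinase that opposes the complex, from 4.09 ± 0.148 to 2.23 ± 0.099 FPKM, and RASSF1, a tumour suppressor that binds CDC20, from 10.5 ± 0.417 to 6.85 ± 0.646 FPKM (limma adjusted p 7.60e-05 and 0.000333). Of 13 subunits of other cullin-RING ligases, 2 were lower and 3 higher, with a median of -0.02. The largest changes were a rise of RNF7, a RING subunit, from 65.1 ± 0.609 to 77.8 ± 2.04 FPKM (limma adjusted p 0.000315), and a fall of CUL1, the cullin of SCF ligases, from 14.2 ± 0.599 to 12.4 ± 0.359 FPKM (limma adjusted p 0.0167). After quantile normalization this list had 1 lower and 5 higher, and without DMSO replicate 1 or 3 it had 1 lower.

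**Figure D4:**
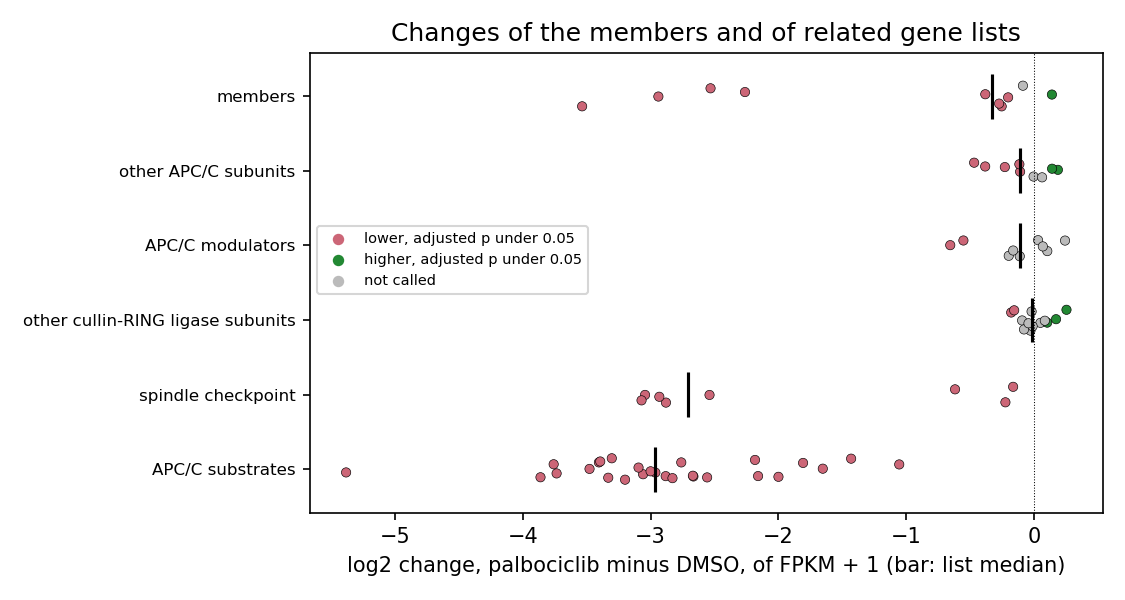
Change in RNA level of each tested gene of 6 groups, palbociclib minus DMSO on the log2(FPKM + 1) scale; points are genes, coloured by call (red lower, green higher, grey not called), and black bars are group medians. The substrate and checkpoint lists have medians of -2.96 and -2.71, and the subunits, modulators and other ligases lie near 0.

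Among the genes whose pattern over the 6 libraries was most like that of CDC20 were PCLAF and MCM7, with Pearson r of 0.99996 and 0.99987 on log2(FPKM + 1) among 13810 genes compared. These 6 points fall into 2 treatments and r takes no account of size, so 768 genes passed 0.99. PCLAF fell from 142.4 ± 2.97 to 12.1 ± 0.830 FPKM and MCM7 from 63.8 ± 0.221 to 18.8 ± 0.476 FPKM.

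Accessibility at the gene starts was measured for 6 of the 10 genes, those with a peak within 1 kb of a start, and in each the peak covered the start. The peaks of CDC20, UBE2C and CDC23 were lower, and those of FZR1, CDC16 and CDC27 were not called, so 3 of 6 were lower and 0 higher. Over all 38121 peaks, 6.46% (2464) were lower and 5.41% (2061) higher in the edgeR quasi-likelihood test. Scaling by library totals turned this balance, to 2030 lower and 2573 higher, and DESeq2 gave 1533 and 981, while the same number of the 6 peaks, 3, was lower under both. Of 6412 peaks within 1 kb of a listed start, 11.1% were lower and 1.86% higher. Levels are CPM, peak counts scaled to a common library size with TMM factors. For FBXO5, UBE2S, ANAPC1 and ANAPC4 the peak table lists none within 3 kb of a start, and their accessibility was not analysed here.

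The CDC20 peak (chromosome 1, 43358225 to 43359174) had 111.0, 112.0 and 114.6 CPM in DMSO and 83.8, 88.6 and 87.8 CPM with palbociclib, from counts of 1233 to 2042 per library. All treated libraries were lower, with a log2 change of -0.38 (SE 0.052, edgeR adjusted p 1.75e-07). This peak also lies within 1 kb of the start of CDC20-DT, a divergent transcript, so it cannot be given to CDC20 alone. The UBE2C peak (chromosome 20, 45812109 to 45813039) had 193.0, 193.9 and 202.0 CPM in DMSO and 155.5, 166.6 and 156.0 CPM with palbociclib (log2 change -0.30, SE 0.046, edgeR adjusted p 1.72e-06). Thus a 12.1-fold lower RNA level stood beside a 1.23-fold lower peak at UBE2C, and an 8.51-fold lower RNA level beside a 1.30-fold lower peak at CDC20.

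CDC23 had the largest change of the 6 peaks although its RNA changed little. Its peak (chromosome 5, 138212947 to 138213838) had 81.6, 79.9 and 77.5 CPM in DMSO and 58.2, 58.2 and 55.1 CPM with palbociclib, with no overlap. The log2 change was -0.48 (SE 0.059, edgeR adjusted p 6.89e-09), a 1.39-fold lower peak beside a 1.22-fold lower RNA level. This is the promoter printed above with 3 CCAAT boxes and 2 overlapping E2F-like octamers, and no other listed start lies within 1 kb of the peak. Motif matches also stood before CDC20, whose peak was lower, and before FZR1, CDC16 and CDC27, whose peaks were not called. A link between motifs and accessibility was not tested.

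The peaks of the other 3 genes changed less. CDC27 (chromosome 17, 47188852 to 47189778) had 161.5, 158.6 and 158.7 CPM in DMSO and 148.4, 145.7 and 146.2 CPM with palbociclib. Its groups did not overlap, but the log2 change of -0.12 (SE 0.046) was not called (edgeR adjusted p 0.0776). FZR1 (chromosome 19, 3505634 to 3506466) had 113.9, 112.0 and 113.1 CPM against 114.1, 109.6 and 109.0 CPM, and CDC16 (chromosome 13, 114234736 to 114235439) 54.0, 51.6 and 48.6 CPM against 52.5, 52.2 and 49.4 CPM. In both the groups overlapped, with log2 changes of -0.03 (SE 0.050) and 0.0002 (SE 0.066) and edgeR adjusted p of 0.796 and 0.999. Of the other subunits, 4 had a peak at a start, and only that of ANAPC11, which lies within 1 kb of the ALYREF start as well, was called, at -0.33 (edgeR adjusted p 3.08e-06).

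**Figure D5:**
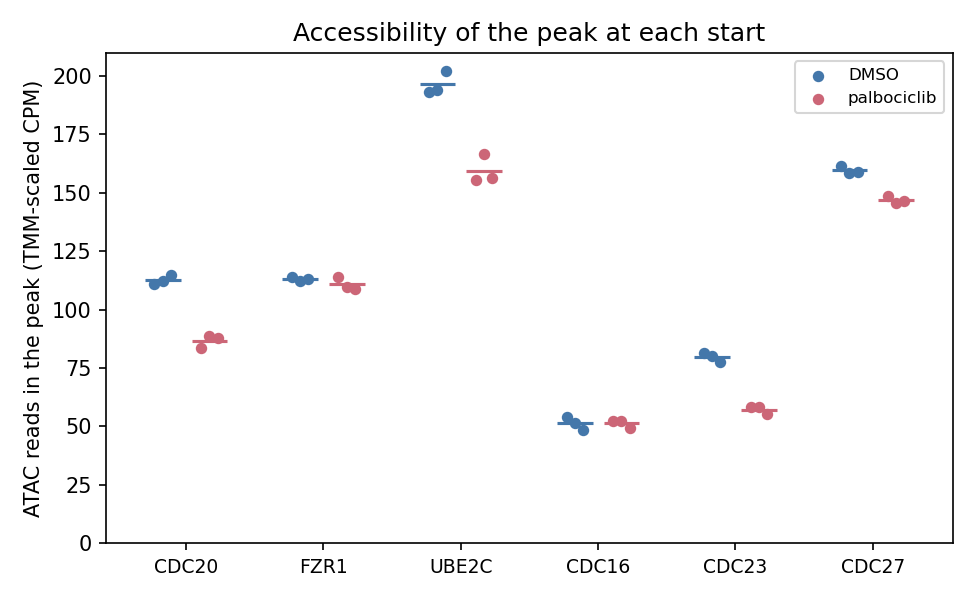
Accessibility of the peak at the start of 6 genes in each ATAC library, in TMM-scaled CPM from 0; points are libraries (DMSO blue, palbociclib red) and bars are means of 3. The treated libraries lie below the controls at CDC20, UBE2C and CDC23, for example 55.1 to 58.2 against 77.5 to 81.6 CPM at CDC23.

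No splicing change was called in the members. The splicing tables listed 112 events in 9 of the genes and none in FBXO5, of 5 types, with 38 in CDC27 and 21 in CDC16. Of these, 27 events in 7 genes had enough reads in both forms, and the edgeR quasi-likelihood test called 0 of 27, where 0.35% of 37445 events over all genes were called. At an unadjusted p under 0.05 there was 1 of 27, against 8.53% of all events. The FDR in the authors' deposited tables was also under 0.05 for 0 of the 27, against 3.82% of the same 37445 events. The inclusion level is the percentage of transcripts, by reads per length, that hold the exon or intron. For a listed pair of exons it is the share of reads per length on 1 of the 2, which can both be in most transcripts. Many of the 27 tested events are such pairs, and some share an exon, so they are not independent. For these a count of 0 says little about a choice between the exons. On simulated skipped exon data, changes of 1 and 2 in log2 odds were recovered in 37% and 93% of events, so a call rate of 0 leaves room for smaller shifts. These changes were planted only in events well above the mean of 20 reads needed for testing. Recovery was not measured in events with few reads, nor in the other event types, to which many of the 27 belong.

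The event with the smallest p was a listed pair of exons of CDC27, at 47158206 to 47158303 and 47181562 to 47181637 on chromosome 17. The pair's inclusion level was 24.7%, 21.8% and 24.9% in DMSO and 18.4%, 19.9% and 18.0% with palbociclib, from 574 to 885 reads per library. The groups did not overlap, but the edgeR p of 0.0068 had an adjusted p of 0.423. In its skipped exon event with the most reads, the first exon had mean inclusion of 99.9% in DMSO and 99.7% with palbociclib. The second had 100% and 99.6%, so the pair's level does not measure a choice between them. In CDC16 a 55-base exon, at 114236645 to 114236699 on chromosome 13, had 82.5%, 87.2% and 84.7% in DMSO and 95.5%, 88.3% and 86.8% with palbociclib (edgeR adjusted p 0.578). In ANAPC1 a 71-base exon, at 111824966 to 111825036 on chromosome 2, went from 85.6% ± 4.79 to 74.7% ± 9.23, with at most 61 reads per library (edgeR adjusted p 0.748).

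In UBE2C no change of form was called while its amount fell. An 87-base exon at 45814384 to 45814470 and a second at 45815541 to 45815745 on chromosome 20 were listed as a mutually exclusive pair. The pair had 6553 to 9675 reads in DMSO libraries and 720 to 791 with palbociclib. The first exon had 26.1%, 26.8% and 24.2% of the pair's reads per length in DMSO and 28.5%, 22.4% and 24.1% with palbociclib. The groups overlapped (edgeR adjusted p 0.974). In its skipped exon event with the most reads, the first had mean inclusion of 98.5% in DMSO and 99.4% with palbociclib. The second had 99.1% and 99.3%, so the pair's share does not measure a choice between them. The smallest p in FZR1, CDC23 and ANAPC4 belonged to a 589-base exon, a retained intron of CDC23 and an alternative 5′ site of ANAPC4. Their mean levels were 3.18% and 2.65%, 2.91% and 3.38%, and 15.9% and 18.6% in DMSO and palbociclib (edgeR adjusted p 0.948, 0.874 and 0.947). The 3 events of CDC20 and UBE2S were almost entirely of 1 form and were not tested.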

How the data were processed

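RNA was measured in 6 and chromatin accessibility in 6 libraries of T-47D cells, and groups and replicate numbers were taken from the titles. FPKM per library and a DESeq2 result table were deposited by the authors. In that table the mean normalized count is read as a signal, and its log2 changes with SE, Wald score and p-values are as deposited. The submitters' processing notes name fastp 0.23.2, Salmon 1.10.2, STAR 2.7.10b, DESeq2 1.44.0 and GRCh38, with no role for each. The rMATS tables deposited by the authors hold read counts and inclusion levels per library. The deposited ATAC table holds raw counts over 1 peak set, made with featureCounts 2.0.6, per the file headers. Its command sets no counting of pairs, so counts are taken as reads.

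Under R 4.3.3, treatments were compared on log2(FPKM + 1) by limma 3.58.1 with its trend option, since FPKM are not counts. Peak counts were compared with the edgeR 4.0.16 quasi-likelihood test (TMM, filterByExpr), and DESeq2 1.42.0 was an alternative. Splicing counts were compared with the same edgeR test per event type, where the model held each library and the interaction of form and treatment. Events needed 20 reads on average, with 5% or more in the rarer form. P-values were adjusted by Benjamini-Hochberg over all genes, all peaks, or all events of a type. Tests were checked on simulated data. In the RNA simulation of 15869 genes, log2 changes of 0.15, 0.25 and 1 were recovered in 14%, 48% and 100% of genes. They were planted in 50 genes per size, all with a mean of at least 5 FPKM. Far more genes were called in the data, so these shares do not give the sensitivity there.

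Named items were all 10 genes, the 2 largest called changes of each fixed list, list genes not called where 5 or fewer, the 3 genes most like CDC20 (mean of at least 1 FPKM; 1 of them is not reported here), every peak within 1 kb of a start, and the event with the smallest p per gene. The genes and lists were chosen with earlier results of these data known. Starts came from RefSeq promoter entries, and for UBE2C from the RefSeq gene and the strand in the splicing tables. Pseudogenes were named by symbol after the table was seen. FPKM give no totals, so precision rests on the spread between libraries.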

Additional observations from a re-analysis of the deposited data

How the results depend on the processing

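The falls of CDC20, FBXO5, UBE2C, UBE2S, CDC23 and CDC27 and the lower peaks of CDC20, UBE2C and CDC23 kept direction and call under all their alternatives, including every left-out library. Without 1 library, 6 to 9 members were lower and 0 to 1 higher, and 6 to 8 checkpoint genes were lower. Other subunits were lower in 4 to 5 and higher in 1 to 2, modulators higher in 0 to 1, and other ligase subunits lower in 1 to 2. Other subunits higher numbered 1 without the filter, without the trend and with the replicate block, and 3 were lower without the trend. With a mean of at least 5 FPKM, 1 modulator was lower and 1 higher, from fewer genes tested. Modulators higher numbered 2 after quantile normalization and 1 with the replicate block, and other ligase subunits then numbered 1 lower and 5 higher after quantile normalization. The cause was not tested. Quantile normalization moved the median change of all genes from 0.0023 to 0.0567, and ANAPC4 turned to 0.019 (limma adjusted p 0.850).

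Directions of uncalled values near 0 also turned. The CDC16 peak was at -0.0022 with DESeq2, -0.00061 with the replicate block, and from -0.0404 (without DMSO replicate 3) to 0.0346 without 1 library each, also negative without palbociclib replicate 1 or 2. Without 1 library each, log2 odds ran from -0.0043 (without DMSO replicate 3) to 0.577 for the CDC23 intron. They ran from -0.621 to 0.0144 for the FZR1 exon and from -0.193 to 0.0423 for the UBE2C exon pair, in both highest without palbociclib replicate 2. The replicate block changed no call of a member, peak or event, and the ratios gave an exact sign-flip p of 0.25, the smallest 3 pairs allow. The labels do not say that a number marks a shared batch, and deviations of same-numbered RNA libraries had r of 0.11, -0.01 and 0.09 (ATAC 0.01, 0.04 and -0.03), so the block was not adopted. P-values measure the spread between these libraries only. On simulated data, log2 changes of 0.25 in RNA were recovered in 48% of genes and of 0.3 in ATAC in 31% of peaks. Changes were planted in 50 genes or 100 peaks per size, far fewer than were called in these data. The adjustment is stricter where few features change, so these shares do not give the sensitivity of the tests here.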

Other observations

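Pseudogenes of the complex carry rows in the RNA table. CDC26P1, a copy of the subunit gene CDC26, was listed at 0, 0 and 6.69 FPKM in DMSO and had 9.30, 12.9 and 7.45 FPKM with palbociclib (limma adjusted p 0.0224), while CDC26 had 36.5, 36.9 and 35.2 FPKM and 34.6, 32.4 and 33.0 FPKM. How reads that fit both were divided was not tested.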
